A study of Gallus gallus with 12 samples.

Results

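Gene expression was compared between heat-exposed and control whole brains of chicken embryos on embryonic day 18. The comparison used 6 of the 12 RNA-seq libraries of the study, chosen by their labels: 3 whole brain libraries of control embryos (CT) and 3 of embryos given embryonic thermal manipulation (ETM). Of the 30742 rows of the count table, 15305 had enough counts to be tested. All eggs came from White leghorn chickens, an egg-laying breed. Per the labels, CT eggs stayed at 37.8 °C until day 18, and ETM eggs were held at 39.5 °C from day 13 to day 18 and otherwise kept like the controls. Nothing else differed between the groups by label, and every library carried the same batch label. The design text calls the replicates biological. No label gives the number of embryos behind a library, so the p-values measure the spread between libraries, which may be technical. The other 6 libraries, labelled hypothalamus, were of the same ages and treatments and are used below only to see where the whole brain differed.

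Late in incubation the chicken brain completes its neuron production, forms synapses and myelin, and begins to take control of body temperature through the hypothalamus and the thyroid axis. Cells that are warmed beyond their usual range make chaperones, the proteins that refold or hold other proteins, under heat shock transcription factors. The brain surface and its vessels are wrapped by fibroblasts, mural cells and basement membranes, whose collagens and laminins are coded by genes that neurons hardly use.

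Library totals ran from 14255321 to 17010590 counts. On the log2 scale of CPM, which are counts scaled to library size, libraries of 1 group correlated at 0.983 to 0.987 and libraries of different groups at 0.953 to 0.971. The first principal component separated CT from ETM and held 60.1% of the variance. A gene of 1 brain region was present: TBR1, a transcription factor of pallial neurons, measured 122 to 179 CPM in CT and 123 to 130 CPM in ETM. This shows pallial tissue and does not check the rest of the label. Of 25 hindbrain and spinal genes found, 9 had enough counts to be tested. TBR1 was not called, but passed as lower without CT library 1. The W chromosome, the female-specific chromosome of birds, took 0.147% of the counts of ETM library 1 and 0.0114% to 0.0174% in the other 5 whole brain libraries.

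Heat exposure went with changes in a large part of the measured genes. With edgeR's quasi-likelihood F test, adjusted after Benjamini and Hochberg, the comparison called 6787 genes (44.3% of those tested) at an adjusted p below 0.05, of which 3230 (21.1%) were higher and 3557 (23.2%) lower in ETM. The 3 CT and 3 ETM libraries did not overlap for 8562 genes (55.9%). Most changes were small: 3487 of the called genes differed by less than 1.5-fold, while 265 were at least 2-fold higher and 532 at least 2-fold lower. The median log2 fold change over all genes tested was 0.0118. Counts of called list members below are to be read beside these shares of all genes. In what follows a level is a mean in CPM with the SD over 3 libraries, a log2 fold change (ETM over CT) is given with its standard error (SE), and "rose" or "fell" is said only of genes called by this test.

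The main collagen of connective tissue and a hormone precursor fell. COL1A1, a chain of type I collagen (ENSGALG00010025092, chromosome 27, 2738241 to 2755487, build GRCg7b), measured 639, 702 and 616 CPM in the CT libraries and 186, 142 and 196 CPM in the ETM libraries. Each ETM library held less than 1 in 3 of the COL1A1 level of any CT library. The log2 fold change was −1.90 ± 0.12 (edgeR adjusted p = 2.63e-05). AVP, the precursor of vasotocin, the antidiuretic hormone of birds (ENSGALG00010016587, chromosome 4, 88244481 to 88246114), measured 62.6, 65.0 and 63.5 CPM in CT and 29.3, 29.3 and 27.7 CPM in ETM. The libraries of a group lay close together and far from the other group, with a log2 fold change of −1.15 ± 0.08 (edgeR adjusted p = 3.81e-05).

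Among the genes that rose were a mitochondrial respiratory subunit and an auxiliary calcium channel subunit. ND6, a subunit of complex I (ENSGALG00010000037, 14962 to 15483 of the mitochondrial genome), measured 146, 128 and 123 CPM in CT and 614, 361 and 627 CPM in ETM. The lowest ETM library, number 2, was still more than 2-fold above the highest CT library, and the log2 fold change was 2.02 ± 0.18 (edgeR adjusted p = 7.64e-05). CACNA2D1, the alpha-2-delta subunit that brings calcium channels to the synapse (ENSGALG00010010410, chromosome 1, 10427911 to 10787255), measured 142, 127 and 142 CPM in CT and 326, 349.6 and 298 CPM in ETM. All ETM libraries lay more than 2-fold above all CT libraries, with a log2 fold change of 1.24 ± 0.09 (edgeR adjusted p = 3.73e-05).

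**Figure D1:**
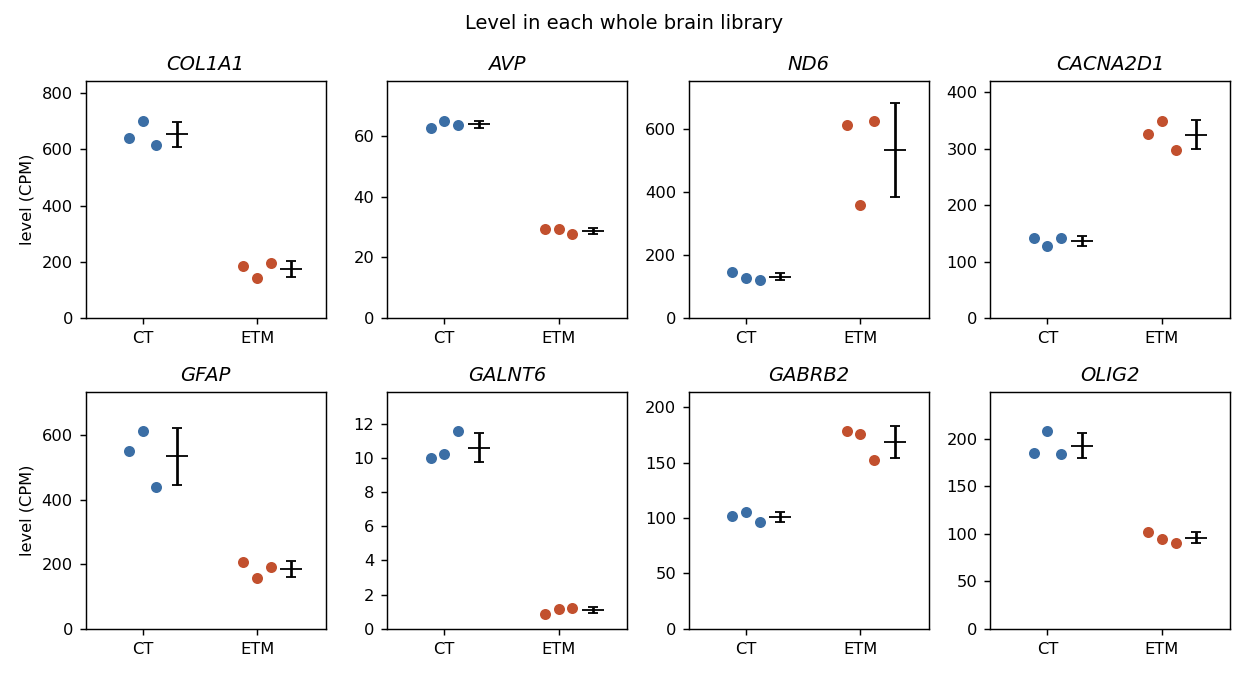
Level of 8 genes in each whole brain library, in CPM on a linear axis that starts at 0, with CT in blue, ETM in red and the mean ± SD of 3 libraries as black bars. No ETM library overlaps a CT library in any of the 8 genes, and the ETM libraries spread most for ND6 (361 to 627 CPM).

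The 15 largest increases were taken among genes at 10 CPM or more in the higher group. Besides ND6 and CACNA2D1 they included OTOS, FBXO5, PPP1R17, EBAG9, CFAP99, MPHOSPH6, MYZAP, CEP290, DYL1, FSBP, MT4 and ARAP2, and the 15 ran from 1.19 to 2.02 on the log2 scale. FBXO5, an inhibitor of the anaphase-promoting complex, measured 4.44, 3.78 and 2.89 CPM in CT and 10.2, 11.6 and 9.34 CPM in ETM. PPP1R17, a phosphatase inhibitor of cerebellar Purkinje cells in mammals, went from 11.8 ± 2.6 to 32.1 ± 2.52 CPM, a log2 fold change of 1.45 ± 0.16. CEP290, of the gate at the base of the cilium, rose by 1.22 ± 0.17. MT4, a metal-binding metallothionein, rose from 53.8 ± 9.15 to 124 ± 20.2 CPM. OTOS, known as a protein of inner ear fibrocytes, measured 5.42, 5.66 and 5.7 CPM in CT but 27.2, 11.9 and 13.0 CPM in ETM, so that 1 library stood well above the other two. OTOS, CEP290, DYL1 and FSBP overlap another gene on the genome, and reads of the partners may not be separable.

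The 15 largest decreases ran from −5.45 to −1.53 on the log2 scale, and 11 of the 15 genes lay on microchromosomes 11 to 39. PFDN2, a subunit of the prefoldin co-chaperone (ENSGALG00010028030, chromosome 25, 2861684 to 2863468), measured 19.2, 27.6 and 52.5 CPM in CT and 1.38, 0.319 and 0.519 CPM in ETM, the largest fall of the rule (−5.45 ± 0.48). PFDN2 overlaps a pair of unnamed genes, and its count was 276 to 334 in 5 libraries labelled hypothalamus and 6 in the sixth, ETM library 3. The second largest fall was that of 1 of 18 rows named 5_8S_rRNA, within the ribosomal repeat on chromosome 16 (−4.00 ± 0.57). It ranged from 7.98 to 37.4 CPM in CT, and reads of repeat copies may not be separable. GALNT6, an enzyme that starts mucin-type O-glycosylation (ENSGALG00010023805, chromosome 34, 2234361 to 2256293), measured 9.99, 10.2 and 11.6 CPM in CT and 0.896, 1.15 and 1.23 CPM in ETM, close to a 10-fold difference with narrow spread in both groups.

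Further decreases of this set fell on glial, lysosomal and connective tissue genes. GFAP, the intermediate filament of astrocytes (ENSGALG00010021974, chromosome 27, 928160 to 932697), went from 551, 612 and 439 to 207, 157 and 192 CPM, library by library in number order within each group. The groups did not overlap, and the log2 fold change was −1.53 ± 0.13 (edgeR adjusted p = 6.76e-05). GM2A, which helps to degrade gangliosides in the lysosome, fell by 2.11 ± 0.23, and ELN, elastin, fell by 1.53 ± 0.23 from 226 ± 56.5 CPM. FOXC2, a forkhead regulator of mesenchyme, fell by 1.58 ± 0.19, and AKNA, an organiser of microtubules at the centrosome, fell by 1.86 ± 0.11. SLC5A5, the iodide transporter, fell by 1.73 ± 0.26, from 18.7 ± 3.68 to 5.62 ± 2.42 CPM. The set was completed by STRA6, ARID3A, LRRC15, CARNS1 and CPXM1, at −1.70 to −1.55. STRA6, the receptor of retinol-binding protein, overlaps ISLR, and FOXC2, LRRC15 and CPXM1 also overlap other genes.

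Among called genes without a symbol, the 2 with the lowest p in each direction were also taken. ENSGALG00010021333 on chromosome 3 rose from 18.8 ± 0.991 to 51.9 ± 2.85 CPM. A row of the W chromosome (670316 to 671838) measured 3.46 to 5.56 CPM in CT and 25.9 to 29.9 CPM in ETM, at a like level in ETM library 1 and in the other ETM libraries, although the W-linked share of library 1 was much higher. ENSGALG00010000483 on chromosome 39 fell from 201 ± 6.63 to 75.7 ± 6.7 CPM, and an unnamed gene on an unplaced scaffold fell from 16.5 to 1.61 CPM (ENSGALG00010000776).

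The direction of change followed the chromosome on which a gene lies. Chicken chromosomes range from large macrochromosomes to many small, gene-dense microchromosomes. On macrochromosomes 1 to 5, 29.1% of 6589 genes rose and 12.8% fell, with a median log2 fold change of 0.163. On microchromosomes 11 to 39, 11.6% of 5338 genes rose and 38.4% fell, with a median of −0.248. Among chromosomes with at least 20 genes tested, the medians were lowest on 34 (−0.615), 16 (−0.602), 38 (−0.599) and 25 (−0.575), and highest on 2 (0.214). The Z chromosome had a median of 0.116, and 234 genes on unplaced scaffolds had a median of −0.517. Z-linked genes held 2.83% of the counts of ETM library 1, 3.86% and 3.73% in ETM libraries 2 and 3, and 3.06% to 3.38% in CT. ETM library 1 also had the high W-linked share, so sex may not be balanced between the groups. Its part in the Z median was not tested.

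The shift was also visible in raw shares of the libraries. Genes of microchromosomes held 41.8%, 44.2% and 42.4% of nuclear counts in the CT libraries and 38.1%, 37.0% and 38.2% in the ETM libraries, so the groups did not overlap. The means were 42.8 ± 1.24% and 37.7 ± 0.64% (SD, n = 3 each, two-sided exact permutation test p = 0.1, the smallest p that 3 against 3 allows). In the libraries labelled hypothalamus the median of microchromosome genes was 0.043 and that of macrochromosomes 1 to 5 was −0.022, both of the opposite sign but small. There the microchromosome shares were 43.4%, 42.5% and 44.3% in CT and 45.7%, 43.5% and 42.5% in ETM. These groups overlapped, and ETM library 1 was the highest.

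Gene span, from start to end of the gene, went with the change as well. Genes under 5 kb had a median log2 fold change of −0.284, genes of 50 to 100 kb a median of 0.170, and genes over 200 kb a median of 0.128. The order held within chromosome classes: on macrochromosomes 1 to 5 the median was −0.114 under 5 kb and 0.238 from 20 to 50 kb, and on microchromosomes −0.408 and −0.097. Long noncoding RNAs had a median of 0.214, with 17.0% of 1539 higher and 5.39% lower. Of the longest called genes, RBFOX1, a neuronal splicing factor spanning 747985 bases, rose by 0.44 ± 0.08, and CELF4, an RNA-binding protein of neurons, rose by 0.51 ± 0.08. CDH4, a cadherin, fell by 0.42 ± 0.08, and ADGRL3, a latrophilin receptor of synapses, fell by 0.46 ± 0.08. DLG2, a postsynaptic scaffold, measured 211 and 262 CPM in CT and ETM and lost its call without ETM library 1 or 2 (edgeR adjusted p = 0.0523 and 0.0545), and with offsets (0.11). PLXNA4, a semaphorin receptor, measured 65.5 and 52.4 CPM and lost its call without ETM library 2 or 3 (edgeR adjusted p = 0.069 and 0.0504).

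To see which genes changed beyond this drift, the test was repeated with an offset per library for the mean of each chromosome and for a smooth trend with gene span. This alternative, chosen after seeing the data, called 6101 genes (39.9%), 3094 higher and 3007 lower, and 4761 genes were called in both fits with the same sign. The median of chromosome 16 moved to 0.507 with the offsets. That of the mitochondrial genome, which was treated as a chromosome, was 0.22. The other chromosomes with at least 20 genes lay between −0.023 and 0.101. Values with offsets are given below for genes where they change a call or a direction, and for some of the lists. Sequence composition of the genes was not examined, and the cause of the drift was not tested.

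**Figure D2:**
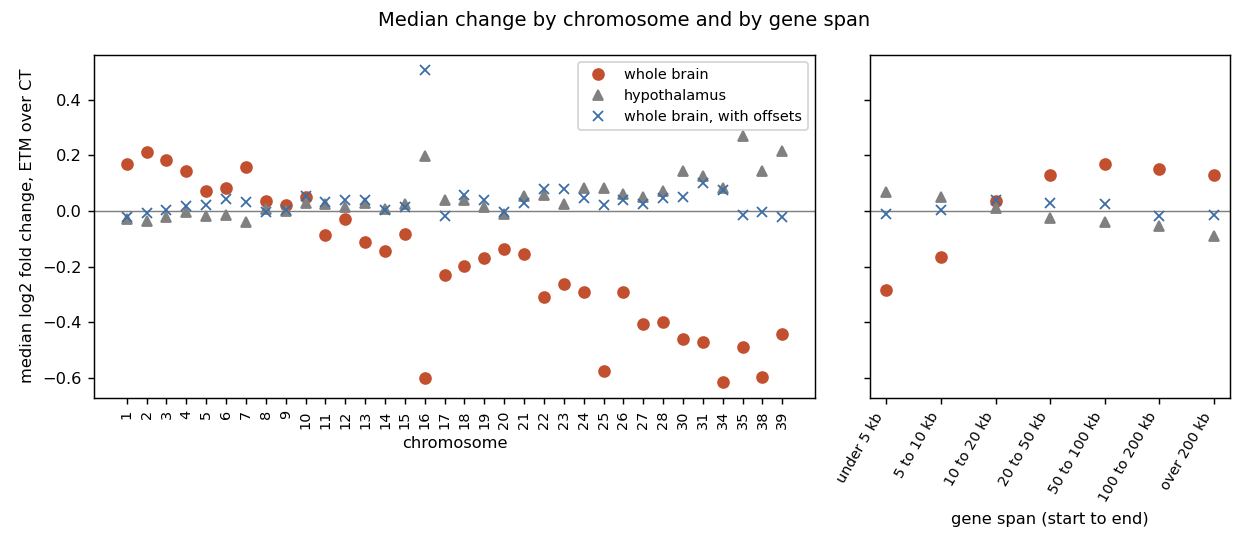
Median log2 fold change (ETM over CT) of the genes tested on each chromosome (left, chromosomes with at least 20 genes) and in each class of gene span (right), in whole brain (red circles), in whole brain with offsets (blue crosses) and in the libraries labelled hypothalamus (grey triangles). Whole brain medians run from 0.214 on chromosome 2 down to −0.615 on chromosome 34. Those of hypothalamus run slightly the other way, but there the microchromosome shares of the CT and ETM libraries overlap.

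Many genes of the extracellular matrix fell. For scale, 23.2% of all genes tested fell and 21.1% rose. Of 22 basement membrane genes tested, 13 fell and 1 rose, with a median log2 fold change of −0.50 (16 fell and 0 rose with offsets). Of 40 matrix glycoproteins and proteoglycans, 21 fell and 3 rose (median −0.45, and 1 rose without CT library 2 or ETM library 1, 2 without ETM library 2), and of 25 fibrillar and associated collagens, 8 fell and 3 rose (median −0.23). The 3 that rose were 2 without CT library 2 and 1 without CT library 3. In bulk tissue, fewer cells of a type and less RNA per cell cannot be told apart.

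Type I collagen moved as a whole. COL1A2, its second chain, measured 546, 593 and 504 CPM in CT and 226, 197 and 225 CPM in ETM, with a log2 fold change of −1.34 ± 0.09. COL3A1, the type III collagen that accompanies it, fell by 0.91 ± 0.09 from 202 ± 8.45 CPM. COL6A1, COL6A2 and COL6A3, the chains of beaded type VI collagen, fell by 0.87 ± 0.14, 0.66 ± 0.12 and 0.60 ± 0.09. The summed level of the fibrillar collagen list was 1840 to 1978 CPM in CT and 868 to 1020 CPM in ETM. LOX and LOXL3, enzymes that cross-link collagen and elastin, fell by 1.01 ± 0.13 and 0.89 ± 0.09, while PLOD2, a lysyl hydroxylase of collagen, rose by 0.78 ± 0.10. Of the 20 collagen processing genes, 8 fell and 2 rose (1 rose without CT library 2 or ETM library 1 or 3).

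In basement membranes, HSPG2, the large proteoglycan perlecan, measured 165, 195 and 158 CPM in CT and 74.4, 63.9 and 74.3 CPM in ETM. LAMC1 and LAMB1, laminin chains, fell by 0.90 ± 0.09 and 0.82 ± 0.09, and NID2, nidogen that links laminin to collagen, fell by 1.26 ± 0.14. The 1 member that rose, named after its values were seen, was COL4A1, a type IV collagen, at 0.36 ± 0.09. With offsets COL4A1 measured 0.11 and was not called. The brain's own proteoglycans fell too: NCAN, neurocan, measured 1237, 1339 and 1254 CPM in CT and 594, 558 and 663 CPM in ETM, and BCAN, brevican, fell by 1.12 ± 0.09. FN1, fibronectin, fell by 0.79 ± 0.08, and SPARC, a collagen-binding glycoprotein, by 0.64 ± 0.11.

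Of the called markers of fibroblasts that wrap brain and vessels, more fell than rose. Of 27 genes of meningeal and perivascular fibroblasts, 13 fell and 4 rose (2 rose without CT library 2 or ETM library 1), with a median of −0.48, and their summed level was 2272 to 2568 CPM in CT and 1234 to 1432 CPM in ETM. COL1A1, COL1A2 and COL3A1, given above as collagens, are among those that fell and made up most of the fall of that sum. They held 652.4, 547.6 and 201.8 CPM of it on average in CT and 174.5, 216.1 and 107.2 CPM in ETM. The sum is therefore not separate from the collagen result. The members that rose, named after their values were seen, were LUM, OGN and KERA, small leucine-rich proteoglycans, and ALDH1A2, which makes retinoic acid in the meninges. ALDH1A2 measured 36.7, 42.3 and 43.7 CPM in CT and 70.0, 67.8 and 58.2 CPM in ETM, without overlap and against the direction of the collagens. KERA rose by 1.33 ± 0.29 from 1.18 CPM. LUM measured 0.48 ± 0.15 and lost its call without CT library 1 or 2 or ETM library 1 (edgeR adjusted p = 0.0576, 0.0551 and 0.087), and OGN measured 0.39 ± 0.12 and lost it without CT library 2 or ETM library 1 or 2 (edgeR adjusted p = 0.0863, 0.0733 and 0.088). With offsets LUM measured 0.31 and was not called.

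Most called genes of mural and endothelial cells fell. Of 13 pericyte and smooth muscle genes, 6 fell and 1 rose, with summed levels of 306 to 320 CPM in CT and 223 to 251 CPM in ETM. TAGLN, an actin-binding protein of smooth muscle, measured 29.7 ± 4.98 CPM in CT and 12.2 ± 1.79 CPM in ETM. PDGFRB, the growth factor receptor of pericytes, and CSPG4 fell by 0.80 ± 0.10 and 0.89 ± 0.10. Of 23 endothelial genes, 11 fell and 2 rose (8 and 1 with offsets, and 1 rose without CT library 2 or any 1 of the ETM libraries). Those that fell included CLDN5, the tight junction protein of the blood-brain barrier, by 0.97 ± 0.13, TIE1, an endothelial receptor kinase, by 0.77 ± 0.14, and ENG, a TGF-beta co-receptor, by 0.77 ± 0.13. EMCN, an endothelial sialomucin, rose by 0.52 ± 0.12. VEGFA, the main growth factor of vessels, measured 73.7 ± 6.38 and 68.5 ± 6.94 CPM and was not called (edgeR adjusted p = 0.413), but was with offsets (−0.31).

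Blood cell transcripts were lower and varied between libraries. Of 14 red blood cell genes, 7 fell and 0 rose, with a summed level of 906 to 1182 CPM in CT and 467 to 794 CPM in ETM. HBA1, an alpha globin gene, measured 307, 284 and 435 CPM in CT and 106, 115 and 255 CPM in ETM, so ETM library 3 came close to the lowest CT library. SLC4A1, the anion exchanger of the red cell membrane, fell by 1.41 ± 0.20, and SPTB, its spectrin, by 0.91 ± 0.10. How much blood or meninges remained with each brain is not stated in the sources used here, and the part of these cells in other results was not tested.

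**Figure D3:**
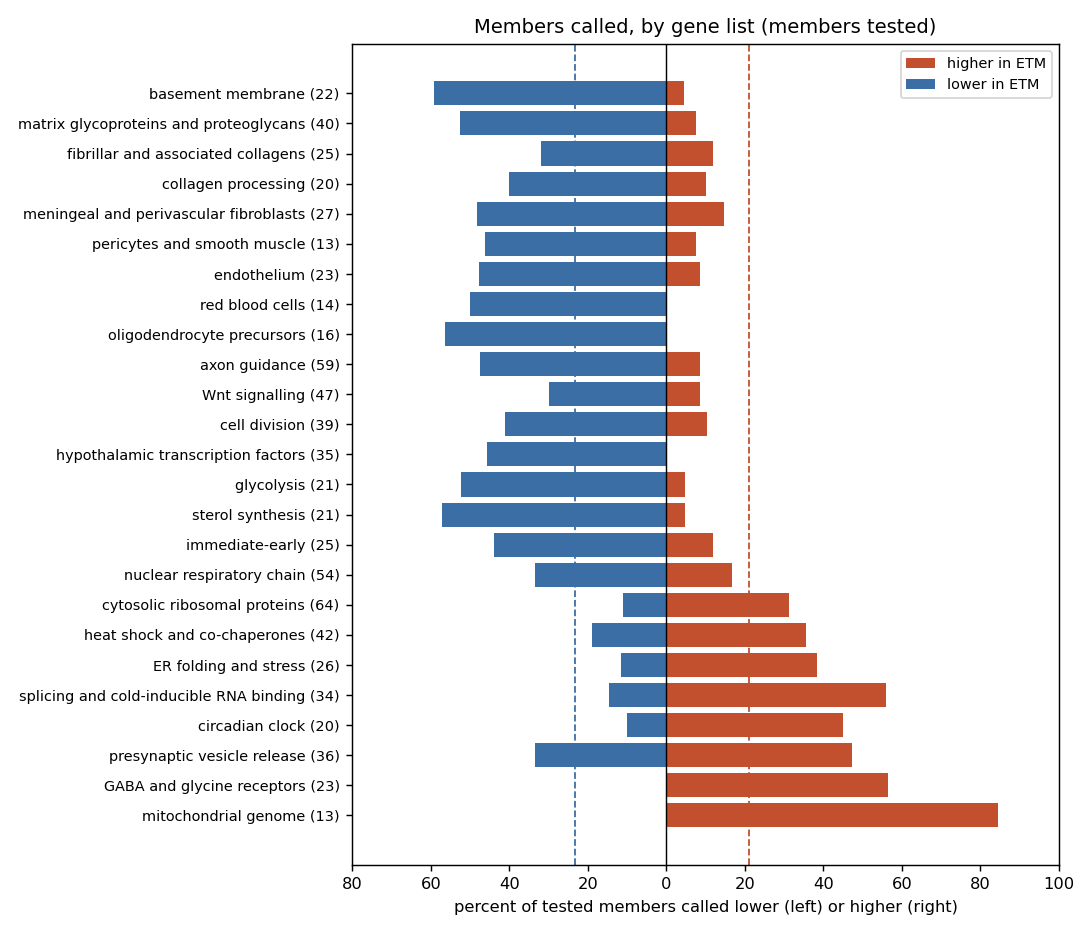
Share of tested members called lower (blue, left) or higher (red, right) in ETM for 25 gene lists, in percent, with the number of members tested in brackets and dashed lines at the share of all genes called lower (23.2%) and higher (21.1%). Matrix, vessel, precursor and guidance lists lie mostly on the lower side, and GABA receptor, splicing, clock and mitochondrial genome lists mostly on the higher side.

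Many subunit genes of receptors for the inhibitory transmitters GABA and glycine rose. Of 23 tested, 13 rose, 0 fell and 10 were not called, with a median log2 fold change of 0.49 (10 rose and 2 fell with offsets, median 0.25), and their summed level was 1249 to 1337 CPM in CT and 1629 to 1876 CPM in ETM. GABRB2, a beta subunit of the GABA-A receptor (ENSGALG00010009999, chromosome 13, 6962185 to 7099734), measured 102, 105 and 96.1 CPM in CT and 178, 176 and 152 CPM in ETM. The groups did not overlap, and the log2 fold change was 0.74 ± 0.09 (edgeR adjusted p = 0.000164). GABRB2 rose although microchromosome 13 as a whole had a median of −0.110. GLRB, which anchors glycine receptors, rose by 0.63 ± 0.09, and GABRA4, an extrasynaptic GABA-A subunit, by 0.66 ± 0.11.

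Glutamate receptor genes were called about as often as all genes. Of 23 genes, 6 rose and 6 fell, and 2 rose and 3 fell with offsets. The count that rose was 3 without CT library 1 or 2 or ETM library 1, and 2 without CT library 3 or ETM library 2. The count that fell was 2 without ETM library 2 or 3, 3 without CT library 2 and 4 without CT library 3 or ETM library 1. GRIA2, the AMPA receptor subunit that keeps calcium out, rose by 0.61 ± 0.08 from 289 ± 21.9 CPM, and GRIN2A, an NMDA receptor subunit of maturing synapses, rose by 0.78 ± 0.13. GRIK3, a kainate receptor subunit, fell by 0.50 ± 0.12 but was not called with offsets (−0.26).

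Presynaptic genes changed in both directions. Of 36 genes of vesicle release, 17 rose and 12 fell (12 and 6 with offsets), and 31 had no overlap between the groups, as had 55.9% of all genes. SLC17A6, a vesicular glutamate transporter, measured 404, 378 and 382 CPM in CT and 791, 764 and 623 CPM in ETM, a log2 fold change of 0.90 ± 0.09. ERC2, a scaffold of the active zone, rose by 0.88 ± 0.09, and SYT4, a synaptotagmin of dense-core vesicles, by 0.91 ± 0.11. BSN, the giant scaffold bassoon of the same active zone, fell by 0.88 ± 0.11, and SV2A, a vesicle glycoprotein, fell by 0.94 ± 0.10 (−0.47 with offsets). ELAVL4, an RNA-binding protein of neurons, measured 312, 288 and 300.3 CPM in CT and 603, 571 and 510.3 CPM in ETM, while TUBB3, the neuronal tubulin, measured 2063, 2690 and 2324 CPM in CT and 1263, 1040 and 1205 CPM in ETM. ELAVL4 and TUBB3 thus moved in opposite directions, each without overlap between the groups. Of 13 general neuronal markers tested, 6 rose, 3 fell and 4 were not called, with a median of 0.25 (7 rose and 1 fell with offsets). Among all genes 21.1% rose and 23.2% fell.

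Synaptic adhesion and scaffold genes were called about as often as all genes, of which 23.2% fell and 21.1% rose. Of 59 such genes, 14 fell and 15 rose (16 and 12 with offsets). NLGN3, a neuroligin of the postsynaptic membrane, measured 280.4, 336 and 298 CPM in CT and 175, 166 and 169 CPM in ETM. SHANK3, a master scaffold of excitatory synapses, fell by 0.80 ± 0.10, whereas FLRT2, a ligand of latrophilins, and DLG1, a scaffold related to DLG2, rose by 0.86 ± 0.09 and 0.76 ± 0.10. Of 38 cadherins and protocadherins, 14 fell and 10 rose, among them CELSR2, an atypical cadherin of planar polarity, at −1.01 ± 0.09 and PCDH10 at −0.55 ± 0.08.

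Of 34 genes of the neuronal cytoskeleton, 15 fell and 11 rose (10 and 10 with offsets), beside 23.2% and 21.1% of all genes. GAP43, a protein of growing axon tips, measured 311, 278 and 290.3 CPM in CT and 445, 500.1 and 479 CPM in ETM, without overlap, and STMN2, which regulates microtubules in axons, rose by 0.60 ± 0.08. KIF1A, the motor that carries synaptic vesicle precursors, fell by 0.73 ± 0.08, and DPYSL5, of the collapsin response family, fell by 0.78 ± 0.09.

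PVALB and CALB1, a pair of calcium-binding proteins of neurons, rose. PVALB, parvalbumin of fast-spiking neurons, measured 49.4, 59.6 and 59.0 CPM in CT and 130.2, 125 and 106 CPM in ETM. CALB1, calbindin, measured 42.6, 48.0 and 57.9 CPM in CT and 102, 102 and 112 CPM in ETM. Their log2 fold changes were 1.10 ± 0.11 and 1.09 ± 0.11, and no library overlapped between the groups. Both belong to a list of cerebellar genes that showed no common direction. Of its 30 genes tested, 6 rose, 4 fell and 20 were not called, with a median of 0.05. The share called, 33.3%, was below the 44.3% of all genes. The summed level of the list was 3480 to 3945 CPM in CT and 3254 to 3453 CPM in ETM. ALDOC, given below, held 1815 and 1211 CPM of it on average.

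Voltage-gated channel genes were called in both directions, as were genes at large. Of 22 calcium channel genes, 7 rose and 6 fell (4 and 4 with offsets, 4 rose without CT library 2 or 3 or ETM library 1 or 2, and 4 fell without CT library 2 or 3 or ETM library 2 or 3). CACNA1D, an L-type pore, rose by 0.75 ± 0.09 and CACNA1H, a T-type pore, fell by 0.67 ± 0.08. The alpha-2-delta subunit CACNA2D2 fell by 0.56 ± 0.08, against the rise of CACNA2D1, and CACNB1, a beta subunit, fell by 0.71 ± 0.09. Of 13 sodium channel genes, 4 rose and 1 fell, with SCN2A and SCN3A, pores of neuronal axons, at 0.50 ± 0.10 and 0.63 ± 0.09. Without CT library 1, 6 rose, and the 1 that fell was 2 without CT library 3 and lost without CT library 2 or ETM library 2. Of 56 potassium and HCN channel genes, 13 rose and 9 fell, and with offsets 9 rose and 11 fell, so the balance turned. KCNIP4, a partner of A-type channels, rose by 1.14 ± 0.13, whereas KCNN3, a calcium-gated channel, fell by 0.88 ± 0.09 and KCNH2, an ERG channel, by 0.83 ± 0.10.

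Peptide genes of the hypothalamus showed no common direction. Of 29 neuropeptide genes tested, 7 rose and 4 fell, beside 21.1% and 23.2% of all genes. The count that rose was 4, 3 and 2 without CT libraries 1, 2 and 3 and 4 without ETM library 3. NTS, neurotensin, measured 46.9, 39.9 and 39.6 CPM in CT and 94.1, 86.6 and 66.4 CPM in ETM, a log2 fold change of 0.97 ± 0.13. SCG2, a secretory granule protein, rose by 0.47 ± 0.09. On the lower side with AVP were OXT, the precursor of mesotocin in birds, at −0.60 ± 0.16, PDYN, prodynorphin, at −0.75 ± 0.17, and CARTPT, a feeding-related peptide, at −1.10 ± 0.29. OXT lies beside AVP on chromosome 4 and measured 11.9, 11.7 and 13.1 CPM in CT and 8.31, 9.37 and 6.49 CPM in ETM, a smaller fall than that of AVP. The peptides at the head of the stress and feeding axes did not pass: CRH measured 34.0 ± 3.02 and 30.4 ± 6.0 CPM (edgeR adjusted p = 0.376), NPY 51.6 ± 2.52 and 49.0 ± 4.72 CPM, and TRH 1.53 ± 0.454 and 1.29 ± 0.355 CPM. TH and TPH2, the enzymes that limit dopamine and serotonin synthesis, were not called either (−0.13 ± 0.22 and −0.34 ± 0.30).

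Transcription factors of the hypothalamus were lower or not called, while 23.2% of all genes fell and 21.1% rose. Of 35 tested, 16 fell and 0 rose, with a median of −0.48 (13 fell with offsets, 9 without ETM library 2, and 7 in 1 fit of all 12 libraries). OTP, which specifies neuroendocrine neurons, measured 5.75, 6.09 and 5.35 CPM in CT and 2.09, 3.44 and 2.21 CPM in ETM. In the fit of all 12 libraries OTP was not called (edgeR adjusted p = 0.123). DLX2, a regulator of forebrain inhibitory neurons, fell by 1.15 ± 0.21 (edgeR adjusted p = 0.1 in the fit of all 12), BARHL2 by 0.91 ± 0.19 and NKX2-2 by 0.63 ± 0.14. FOXB1, of the mammillary region, measured 13.6, 5.66 and 7.32 CPM in CT, so its CT libraries spread widely, and 2.87, 2.87 and 4.28 CPM in ETM. NKX2-1, the ventral regulator, was not called, at 5.64 ± 0.819 and 5.04 ± 0.245 CPM.

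In the stress and thyroid axes, a receptor and a binding protein fell. Of 28 receptor genes of the stress and gonadal axes, 5 rose, 6 fell and 17 were not called, with a median of −0.04. The share of them called, 39.3%, was below the 44.3% of all genes. NR3C1, the glucocorticoid receptor, measured 14.4, 12.6 and 13.7 CPM in CT and 7.65, 9.94 and 8.82 CPM in ETM, a log2 fold change of −0.62 ± 0.15. FKBP5, a co-chaperone that glucocorticoids induce, measured 102 ± 4.38 and 97.2 ± 14.5 CPM and was not called. Of 18 thyroid axis genes, 7 fell and 1 rose, beside 23.2% and 21.1% of all genes. The rise was lost without CT library 2 or ETM library 1 or 2. CRYM, which binds the hormone inside the cell, fell by 0.77 ± 0.08. The deiodinases DIO2, which activates the hormone, and DIO3, which inactivates it, were not called (0.08 ± 0.14 and −0.89 ± 0.48). TTR, a thyroid hormone carrier from the choroid plexus, measured 1028, 684 and 1108 CPM in CT and 1651, 1296 and 1096 CPM in ETM, with overlap. Its call was lost without CT library 2, where its log2 fold change fell from 0.52 to 0.32, and without ETM library 1 or 2 (edgeR adjusted p = 0.0999, 0.129 and 0.0616). TTR was not called with offsets (0.37).

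Most protein genes of the mitochondrial genome rose. Of these 13 genes, 11 rose and 0 fell, with a median of 0.36, and mitochondrial genes held 6.17% to 6.29% of counts in CT and 7.09% to 8.62% in ETM. Apart from ND6, the larger rises were those of ND3 (0.78 ± 0.12), ATP8 (0.67 ± 0.13), ND2 (0.61 ± 0.07) and ND5 (0.49 ± 0.08). COX1, a catalytic subunit of complex IV chosen after its values were seen, measured 16270, 15850 and 16050 CPM in CT and 17780, 20410 and 22910 CPM in ETM, and lost its call without CT library 3 (edgeR adjusted p = 0.05). ND1 and ND4, the pair not called, measured 0.17 ± 0.09 and 0.18 ± 0.07 and passed without ETM library 1. With offsets 4 of the 13 rose, and ND5 and COX1, at 0.41 and 0.26, did not pass. The offsets remove the mean of the 27 mitochondrial genes tested in each library. Fewer rises thus follow from the offsets by design and do not test the rises. In 1 fit of all 12 libraries 3 rose. ND6 is the single protein gene on the light strand of the vertebrate mitochondrial genome, and since the strand setting is not given, reads of the opposite strand may be counted in it.

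Nuclear genes of the respiratory chain did not share that direction. Of 54 tested, 9 rose and 18 fell, beside 21.1% and 23.2% of all genes. With offsets 17 rose and 7 fell, so the balance turned. Without ETM library 2, 9 fell, without ETM library 3, 12 fell, and without ETM library 1, 6 rose. CYCS, cytochrome c, rose by 0.64 ± 0.08 and UQCRB, of complex III, by 0.79 ± 0.10, whereas NDUFS8, an iron-sulfur subunit of complex I, fell by 0.79 ± 0.10. Genes of cytosolic ribosomal proteins, mostly short, gave 20 higher and 7 lower of 64 (32 and 5 with offsets). The share of them called, 42.2%, was close to the 44.3% of all genes. Without CT library 3, 13 were higher and 4 lower, and without ETM library 2, 3 were lower.

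Many genes of glycolysis and sterol synthesis fell. Of 21 glycolytic genes, 11 fell, 1 rose and 9 were not called (9 and 1 with offsets, and 6 fell in 1 fit of all 12 libraries), with a summed level of 11910 to 13280 CPM in CT and 9462 to 10020 CPM in ETM. GAPDH, which many studies use as a reference gene, measured 3902, 4576 and 4229 CPM in CT and 2972, 2889 and 2964 CPM in ETM, without overlap. PFKL, the committing step of the pathway, fell by 0.98 ± 0.09, LDHA, lactate dehydrogenase, by 0.65 ± 0.11, PGAM1 by 0.59 ± 0.08 and ALDOC, the brain aldolase, by 0.58 ± 0.08. The 1 member that rose, SLC16A3, is a lactate exporter and not an enzyme of the pathway, at 0.44 ± 0.09.

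Of 21 sterol synthesis genes, 12 fell, 1 rose and 8 were not called (8 and 2 with offsets, 8 fell in 1 fit of all 12 libraries, and 2 rose without ETM library 1 or 3). SREBF2, the transcription factor that drives the pathway, measured 459.9, 539.6 and 491 CPM in CT and 316, 300.5 and 297 CPM in ETM. SCAP, its escort protein, fell by 0.65 ± 0.08, and LSS, the enzyme that closes the sterol ring, by 0.64 ± 0.08. MSMO1, an enzyme of the same pathway, rose by 0.86 ± 0.12, from 173 ± 15.7 to 315 ± 52.0 CPM. Of 19 fatty acid synthesis genes, 6 fell and 8 rose (5 rose without CT library 2, and 4 without ETM library 2). SREBF1, the transcription factor of that pathway, FASN, fatty acid synthase, and SCD, a desaturase, fell by 0.91 ± 0.11, 0.58 ± 0.08 and 0.50 ± 0.09. ACSL4, which activates long-chain fatty acids, and FABP5, a fatty acid carrier, rose by 0.58 ± 0.10 and 0.53 ± 0.09.

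Chaperones changed in both directions after 5 days at 39.5 °C, beside 21.1% of all genes that rose and 23.2% that fell. Of 42 heat shock and co-chaperone genes, 15 rose and 8 fell with a median of 0.08 (20 and 5 with offsets, median 0.26), and 4 fell without CT library 2 or 3 or ETM library 2. HSP90AA1, the inducible HSP90 (ENSGALG00010016869, chromosome 5, 48992856 to 49000405), measured 1852, 1746 and 1742 CPM in CT and 3068, 3035 and 2427 CPM in ETM. HSP90AB1, the constitutive form (ENSGALG00010019591, chromosome 3, 29961061 to 29967272), measured 452, 531 and 505 CPM in CT and 259, 240.1 and 334 CPM in ETM. Both forms were separated between the groups, in opposite directions, at 0.68 ± 0.09 and −0.84 ± 0.12. HSPH1, which recharges HSP70 with ATP, rose by 0.68 ± 0.09, HSPA13 by 0.86 ± 0.11 and BAG5 by 0.66 ± 0.09, whereas UNC45A, a co-chaperone of myosin, fell by 0.85 ± 0.11.

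Classical heat shock genes of the HSP70 and small families did not pass. HSPA2 measured 158, 164 and 150.1 CPM in CT and 185, 167 and 156 CPM in ETM, with a log2 fold change of 0.11 ± 0.08 that did not pass (edgeR adjusted p = 0.321). HSPA8, the constitutive HSP70, measured 2221 ± 77.0 and 2396 ± 131 CPM, and HSPB9, a small heat shock protein, 6.31 ± 0.399 and 5.68 ± 1.2 CPM. Neither was called, but HSPA2 and HSPA8 were called as higher with offsets, at 0.23 and 0.48. BAG3, which carries misfolded proteins to autophagy, measured 0.34 ± 0.12 and lost its call without CT library 2 or 3 or ETM library 2 or 3 (edgeR adjusted p = 0.126, 0.0897, 0.111 and 0.0825), and with offsets it was not called (0.28). DNAJB1, an HSP40 partner of HSP70 on chromosome 30, measured −0.28 ± 0.09 and turned to 0.29 with offsets. Its call was lost without any 1 of the CT libraries or without ETM library 2 or 3 (edgeR adjusted p from 0.0561 to 0.137).

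Of the heat shock factors, HSF1 was called and HSF2 was not. HSF1, the main stress-activated factor, measured 14.6, 24.3 and 19.9 CPM in CT and 13.6, 12.5 and 14.8 CPM in ETM, and its call was lost without CT library 2 or 3 or ETM library 1 or 2 (edgeR adjusted p = 0.122, 0.0721, 0.0624 and 0.096). HSF2 measured 51.3 ± 6.42 and 61.9 ± 2.96 CPM (edgeR adjusted p = 0.0502) and passed without CT library 3. Of 22 genes of TRP and related channels, 6 rose and 2 fell, beside 21.1% and 23.2% of all genes. The count that rose was 4 without CT library 3 or ETM library 1. The count that fell was 1 without CT library 2 or 3 or ETM library 1 or 2. The warmth-gated channel TRPV3 measured 2.81, 3.65 and 4.58 CPM in CT and 7.05, 5.04 and 7.2 CPM in ETM, without overlap, and its call (0.81 ± 0.24) was lost without CT library 1 or 2 or ETM library 1 or 3 (edgeR adjusted p = 0.0559, 0.0506, 0.0529 and 0.0591). The heat-gated TRPV1 and the cold-gated TRPM8 were not called, TRPV1 at 0.817 and 1.11 CPM and TRPM8 at 1.23 and 1.36 CPM.

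Some genes of folding in the endoplasmic reticulum rose. Of 26 genes, 10 rose, 3 fell and 13 were not called. HSP90B1, the HSP90 of this compartment, measured 366, 361 and 343 CPM in CT and 606, 603 and 573 CPM in ETM, without overlap. SDF2L1 and DNAJB9, partners of the chaperone BiP, rose by 0.77 ± 0.10 and 1.05 ± 0.16. HSPA5, BiP itself, measured 325 ± 9.73 and 349 ± 2.36 CPM and was called with offsets alone (0.42). ATF6, a sensor of unfolded proteins, fell by 0.52 ± 0.10. In the cytosolic prefoldin and chaperonin complexes, PFDN4 rose by 1.10 ± 0.11 and CCT3 fell by 0.59 ± 0.12 (−0.03 and not called with offsets), beside the loss of PFDN2 reads.

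Many RNA-binding genes of splicing rose. Of 34 genes, 19 rose and 5 fell, with a median of 0.31 (22 and 1 with offsets). HNRNPA3, a general splicing regulator, measured 405, 384 and 409 CPM in CT and 636, 639 and 644 CPM in ETM, with little spread in ETM. CLK4, a kinase of splicing factors, rose by 0.87 ± 0.10, RBM25 by 0.79 ± 0.10 and TRA2A by 0.63 ± 0.07, while SRSF2 fell by 0.64 ± 0.08. RBM3, known in mammals as a cold-induced protein, measured 343, 349 and 340.3 CPM in CT and 484, 438 and 461 CPM in ETM. It was thus higher in the warmer embryos, at 0.42 ± 0.07 and at 0.95 with offsets.

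Several genes of oligodendrocyte precursors fell, and those of myelin gave a mixed picture. Of 16 precursor genes, 9 fell, 0 rose and 7 were not called (11 fell with offsets), with a median of −0.57. OLIG2, the transcription factor of the lineage (ENSGALG00010010227, chromosome 1, 105274469 to 105276737), measured 186, 208 and 184 CPM in CT and 102, 95.0 and 90.4 CPM in ETM. SOX10, its partner, fell by 0.96 ± 0.14, and CSPG5, a proteoglycan, by 0.65 ± 0.08. Of 17 myelin genes, 6 fell, 2 rose and 9 were not called, and their summed level of 4136 to 6198 CPM in CT overlapped that of 3995 to 5050 CPM in ETM (9 fell without CT library 1, 4 fell without CT library 2 or 3 or ETM library 3, and 1 rose without any 1 of the CT libraries or ETM library 1). CLDN11, the tight junction protein of myelin, fell by 1.13 ± 0.13 and MYRF, the factor that starts myelination, by 1.03 ± 0.17. MBP, myelin basic protein, measured 1222, 1719 and 1554 CPM in CT and 1736, 2114 and 1490 CPM in ETM and was not called.

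Astrocyte and microglia genes did not move as 1 block. For scale, 23.2% of all genes fell and 21.1% rose. Of 19 astrocyte genes, 5 fell and 3 rose (2 rose without CT library 3 or ETM library 2). HEPACAM, an adhesion protein of astrocytes, and GLUL, glutamine synthetase, fell by 0.80 ± 0.09 and 0.44 ± 0.08, with the fall of GFAP given above. SLC1A3, the glutamate transporter of radial glia and astrocytes, rose from 635 ± 102 to 988 ± 106 CPM. Of 20 microglia and macrophage genes, 6 fell and 2 rose, and with offsets 3 fell and 2 rose. Leaving out a library changed the counts: 4 fell without CT library 1 or 2 or ETM library 1 or 3, and 3 without ETM library 2. The count that rose was 1 without CT library 2 or 3 or ETM library 1 or 2. CSF1R, the receptor on which microglia depend, measured 41.9 ± 1.14 CPM in CT and 27.8 ± 1.59 CPM in ETM, and MPEG1, perforin-2 of macrophages, fell by 1.13 ± 0.20. LY86, a partner of a Toll-like receptor relative, rose by 0.87 ± 0.19.

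Protein turnover and chromatin genes were called in both directions, beside 23.2% of all genes that fell and 21.1% that rose. Of 34 proteasome genes, 14 fell and 4 rose, but with offsets 6 fell and 8 rose, so that the balance turned, and 9 fell without ETM library 2. PSMD2, of the regulatory particle, fell by 0.80 ± 0.09, and PSMA2, of the core, rose by 0.81 ± 0.11. Of 37 autophagy and lysosome genes, 10 fell and 8 rose (5 rose without any 1 of the CT libraries or ETM library 2), close to the shares of all genes, with SQSTM1, the cargo receptor p62, at −0.77 ± 0.11 and ATG5, of the membrane conjugation system, at 0.72 ± 0.12. Of 51 chromatin genes, 17 fell and 9 rose (4 rose without CT library 1, and 6 without CT library 3 or ETM library 2 or 3). DNMT1, the maintenance DNA methyltransferase, fell by 0.74 ± 0.10, and ATRX, a chromatin remodeller, rose by 0.63 ± 0.08.

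Many genes that guide axons fell. Of 59 tested, 28 fell and 5 rose (31 and 2 with offsets), with a median of −0.26. SLIT1, a repellent ligand, measured 313, 335 and 276 CPM in CT and 134, 129.5 and 142 CPM in ETM, without overlap, and the log2 fold change was −1.19 ± 0.09. SEMA4B, a semaphorin, fell by 1.11 ± 0.09, NTN1, netrin, by 1.03 ± 0.09, and UNC5A, a netrin receptor, by 0.92 ± 0.10. EFNB2, an ephrin, rose by 0.72 ± 0.09.

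Signalling genes moved both ways, with more of them lower, beside 23.2% of all genes that fell and 21.1% that rose. The share of Wnt genes called, 38.3%, was below the 44.3% of all genes. Of 47 Wnt genes, 14 fell and 4 rose (2 rose without CT library 2, and 9 fell in 1 fit of all 12 libraries). FZD2 and FZD7, Wnt receptors, fell by 1.39 ± 0.15 and 0.94 ± 0.13, whereas RSPO2 and RSPO3, secreted proteins that strengthen Wnt signals, rose by 1.15 ± 0.17 and 1.14 ± 0.10. RSPO3 measured 16.1, 16.3 and 15.4 CPM in CT and 37.5, 35.1 and 33.0 CPM in ETM. Of 39 genes of TGF-beta and BMP signalling, 13 fell and 6 rose (4 rose without ETM library 2). BMP4, a ligand, fell by 1.31 ± 0.15 and CHRD, its secreted antagonist chordin, by 1.59 ± 0.25.

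Of 39 cell division genes, 16 fell and 4 rose (2 rose without CT library 2 or ETM library 3, and 1 without ETM library 2). Among all genes 23.2% fell and 21.1% rose. RRM1, which makes DNA building blocks, measured 132, 147 and 142 CPM in CT and 90.7, 89.2 and 99.2 CPM in ETM. MCM5, of the replicative helicase, fell by 0.90 ± 0.14 and CDT1, which loads it, by 0.96 ± 0.14. Of 20 genes of neural stem cells and intermediate progenitors, 5 fell, 4 rose and 11 were not called (4 fell and 2 rose with offsets), shares close to those of all genes, with a median of −0.07. Their summed level of 2586 to 2909 CPM in CT overlapped that of 2863 to 3029 CPM in ETM. SLC1A3, given above, was among those that rose, while INSM1 fell by 1.11 ± 0.14, HES1, a Notch target, by 0.96 ± 0.14, and VIM, the filament of radial glia, by 0.62 ± 0.07.

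Several clock genes rose, and several genes induced by neuronal activity fell. Of 20 clock genes, 9 rose and 2 fell (6 rose without CT library 3, and 3 fell without CT library 3 but 1 without CT library 1 or ETM library 1 or 3). NFIL3, a transcriptional repressor, measured 18.7, 17.2 and 19.8 CPM in CT and 29.9, 38.6 and 34.0 CPM in ETM, and RORB, PER2 and CLOCK rose by 0.94 ± 0.15, 0.66 ± 0.13 and 0.56 ± 0.11. NR1D1, the repressor REV-ERB alpha, fell by 0.72 ± 0.13 but was not called with offsets (−0.20). The time of day of sampling is not given in the sources used here. Of 25 immediate-early genes, which neurons switch on when active, 11 fell and 3 rose (7 and 4 with offsets). NR4A2 and KLF2 fell by 0.75 ± 0.11 and 1.00 ± 0.18, and FOS, the best known of them, by 0.55 ± 0.15. FOS was not called in 1 fit of all 12 libraries or with an offset for gene span alone (−0.30, edgeR adjusted p = 0.122). ARC, of active synapses, rose by 0.65 ± 0.14, and EGR1 was not called (0.28 ± 0.14) but passed without CT library 2 and with offsets (0.57). BDNF, a neurotrophin, measured 15.2, 10.1 and 12.7 CPM in CT and 20.7, 16.7 and 15.5 CPM in ETM, with its call lost without CT library 2 or 3 or ETM library 1 or 2 (edgeR adjusted p = 0.132, 0.0913, 0.14 and 0.0616) and with offsets (0.38). Of 35 genes of neurotrophins and growth factors, 7 rose and 13 fell (5 and 13 with offsets), with a median of −0.11. Among all genes 21.1% rose and 23.2% fell.

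Genes listed as markers of tissues that lie beside the brain ranged from absent to clearly expressed. The pituitary hormone genes PRL and TSHB had 2 to 8 and 1 to 4 counts per library, and POMC 19 to 79 counts. The lens crystallin CRYAA had 0 to 3 counts, the muscle factor MYF5 0 in all 6 libraries, the cartilage gene MATN1 0 to 3 and the skin keratin KRT5 0 to 5. The counts of calls that follow stand beside 23.2% of all genes tested that fell and 21.1% that rose. Of 12 skeletal muscle genes that passed the count filter, 4 fell and 2 rose, with summed levels of 278 to 326 CPM in CT and 187 to 232 CPM in ETM (2 fell without CT library 2 or 3 or ETM library 1, and 1 rose without CT library 2 or ETM library 2 or 3). RYR1 and TPM2 held most of that sum, RYR1 at 170.3 to 200.1 CPM in CT and 106.2 to 126.1 CPM in ETM. TPM2 measured 57.04 to 74.55 and 26.84 to 43.8 CPM. The muscle genes MYL1 and MYOD1 had 2 to 4 and 7 to 21 counts per library. Of 17 cartilage and bone genes, 5 fell and 2 rose (1 rose without CT library 2 or 3 or ETM library 1 or 2), and SPARC held most of their sum of 1458 to 1709 CPM in CT and 1030 to 1222 CPM in ETM. ALPL, an alkaline phosphatase, and ACAN, the proteoglycan aggrecan, fell by 1.04 ± 0.11 and 0.93 ± 0.17, from 1138 to 1690 and 815 to 1235 counts in CT. Of 10 skin genes, 2 fell and 0 rose, with a sum of 124 to 146 CPM in CT and 76.7 to 93.6 CPM in ETM (3 fell without ETM library 3), and the keratin KRT14 had 130 to 174 counts in CT and 50 to 105 in ETM. DSP held 76.56 to 91.3 CPM of the skin sum in CT and 36.92 to 54.33 CPM in ETM. The call of KRT14 (−0.93 ± 0.24) was lost with offsets (−0.42). Whether these levels come from muscle, bone or skin was not tested, nor was the part of these tissues in the matrix result. Of 35 genes of ependyma and motile cilia, 9 fell and 2 rose (6 fell without ETM library 2 and 5 without ETM library 3, and 3 rose without CT library 1 but 1 without CT library 2 or 3). HYDIN and DNAH9, of the motile axoneme, fell by 0.88 ± 0.14 and 0.67 ± 0.10, and CCDC39, an axonemal ruler protein, rose by 1.08 ± 0.21.

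Some genes named above overlap a neighbour on the genome, and since strand is unknown their reads may be shared. Among matrix, vessel and blood genes these were LOXL3, PLOD2, HSPG2, NID2, BCAN, ACAN, ENG, TAGLN and SPTB. Among neuronal, peptide and guidance genes they were SCN2A, CACNB1, KCNH2, TRPV3, NTS, PDYN, TRH, CRYM, SLIT1, UNC5A, INSM1 and RORB. In metabolism, cilia, folding, glia and chromatin they were ATP8, NDUFS8, PFKL, PGAM1, LDHA, SCAP, ACSL4, DNAH9, BAG3, BAG5, DNAJB1, HSF1, HSPA5, HSPA8, ATF6, CSF1R, MPEG1, GLUL, SQSTM1, DNMT1 and ATRX.

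Few genes were called in the libraries labelled hypothalamus. Those libraries had 0 to 2 counts of TBR1 and 0 to 20 counts of NKX2-1 per library, although NKX2-1 marks the ventral hypothalamus. In them edgeR called 7 of 15405 genes (0.0454%), with 1594 at an unadjusted p below 0.05. The count was 0 without CT library 1, 2 or 3 or ETM library 3 of that tissue (1258, 1169, 1308 and 1325 at an unadjusted p below 0.05), 39 without ETM library 1 and 4 without ETM library 2, and DESeq2 called 195. The test of the difference between the heat effects, over all 12 libraries, called 3917 of 16201 genes (24.2%), and 3474 of the 6787 whole brain calls were among them. That test reuses the whole brain libraries, so the larger share among whole brain calls is no result about them. Of 6658 whole brain calls tested in both tissues, 41.5% had the same sign in hypothalamus, against 44.7% of all 14769 genes tested in both.

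The difference was called for genes of several groups above. Most genes named above were picked for their change in whole brain. COL1A1 fell by 1.90 in whole brain and measured −0.33 ± 0.18 in hypothalamus, a difference of −1.54 ± 0.23 (edgeR adjusted p of the difference = 0.00192). AVP measured 0.53 ± 0.23 in hypothalamus (difference −1.64 ± 0.23, edgeR adjusted p = 0.0015) and ND6 −0.25 ± 0.12 (difference 2.30 ± 0.24, edgeR adjusted p = 0.000641). Scaled to library totals, AVP held 8.025 to 15.38 CPM in the libraries labelled hypothalamus, below the 28.26 to 63.27 CPM of whole brain. For CACNA2D1 the hypothalamus value was −0.05 ± 0.12 and for OLIG2 0.28 ± 0.14, and the difference was called for both. The chaperones HSPA2 and HSPB9 measured 1.25 ± 0.13 and 1.25 ± 0.15 in hypothalamus against 0.11 and −0.15 in whole brain, and the difference was called for both (edgeR adjusted p = 0.00142 and 0.00253). HSPA13, UNC45A and DNAJB1 had opposite signs in the tissues. They measured −0.09, 0.20 and 0.42 in hypothalamus against 0.86, −0.85 and −0.28 in whole brain. Their differences were called (edgeR adjusted p = 0.00294, 0.00449 and 0.00647). Some other chaperones had the same sign in both tissues. HSP90AA1, HSPH1 and HSP90AB1 measured 0.54 ± 0.15, 0.53 ± 0.14 and −1.46 ± 0.19 in hypothalamus, where HSP90AB1 was called (edgeR adjusted p = 0.0458). Their differences were not called (edgeR adjusted p = 0.456, 0.427 and 0.074). Of 42 heat shock and co-chaperone genes, the difference was called for 15.

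**Figure D4:**
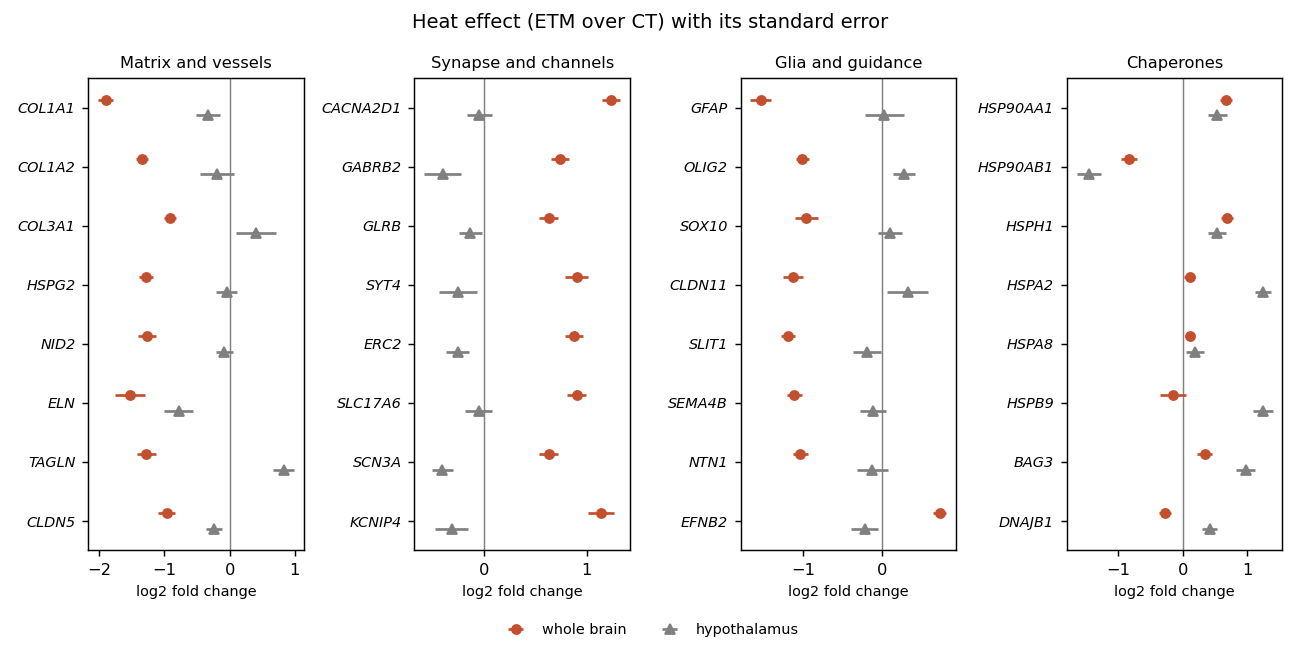
Log2 fold change (ETM over CT, points) with its standard error (bars) for 32 genes in whole brain (red circles) and in the libraries labelled hypothalamus (grey triangles). Matrix, synapse and glial genes lie away from 0 in whole brain and mostly near 0 in hypothalamus, while HSPA2 (0.11 against 1.25) and HSPB9 (−0.15 against 1.25) lie further from 0 in hypothalamus. The matrix, synapse and glial genes were mostly picked among genes called in whole brain.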

How the data were processed

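Total RNA was extracted with TRIzol and sequenced on a NovaSeq X Plus, per the labels' protocols; incubator humidity is given as 60% in the protocol and 65% in the design text. The authors deposited a table of read counts per gene and a table of FPKM, made with featureCounts 2.0.6 on GRCg7b per the submitters' processing notes. No source used here names the aligner or the strand setting, so reads of overlapping, antisense or multi-copy genes may not be separable. The FPKM table matched the deposited counts within 0.1% in 11 of 12 libraries, the exception being ETM hypothalamus library 1. The 634 rows without a gene name or ID held 0.5001% of whole brain counts.

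Genes were tested on the whole brain counts in R 4.3.3, using edgeR 4.0.16 (TMM scaling, filterByExpr, glmQLFit and glmQLFTest, Benjamini-Hochberg adjustment over all genes tested, adjusted p below 0.05). SE is the log2 fold change divided by the square root of F and is approximate. The tissue difference is the interaction term over all 12 libraries. The test was run on simulated counts with 200 changed genes and no drift by chromosome or gene span, unlike the data here. That run cannot check the test under a drift or with as many changes as were called. Alternatives were DESeq2 1.42.0, limma 3.58.1 on log2 FPKM, other scalings, filters and thresholds, leaving out each library, the replicate number as a block, and offsets for chromosome and gene span, the offsets being added after seeing the data. Samples with the same number did not deviate together (r = −0.052, −0.0247 and −0.0112), so the numbers were not taken as pairs.

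Named genes were COL1A1, AVP, ND6 and CACNA2D1, the 15 largest called changes in each direction without overlap at 10 CPM or more in the higher group, up to 6 called members per list ranked by p, a set of 34 heat, stress and thyroid genes, the 4 longest called genes per direction, and 2 without a symbol per direction; others are said to be chosen after their values were seen, and a few genes are not reported here. The members and the 74 lists were chosen with earlier results of these data known. Symbols were found for 1960 of 2253 listed genes; CIRBP and AGRP were not found by symbol and TRPV4 was below the filter. Depth limits most the genes near 1 CPM.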

Additional observations from a re-analysis of the deposited data

Results flagged for a closer look

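The heat effect in whole brain differed from that in the libraries labelled hypothalamus for 166 of 247 named genes. These calls are by the edgeR test of the difference with Benjamini-Hochberg adjustment, and 68 differences were positive and 98 negative. Over all genes the difference was called for 3917 of 16201 (24.2%). Most named genes were picked for their change in these whole brain libraries, which the test reuses, so their larger share is no result about them. Some of the 166 differences are given here. Each difference is whole brain minus hypothalamus on the log2 scale, and the cause was not tested. Among connective tissue and vessel genes the difference was −1.54 ± 0.23 for COL1A1 and −2.07 ± 0.22 for TAGLN (edgeR adjusted p = 0.00192 and 0.000641). For GALNT6 it was −4.33 ± 0.69, for AKNA −2.26 ± 0.23 and for 5_8S_rRNA −6.47 ± 0.93, a row of a repeated gene. For AVP it was −1.64 ± 0.23 and for NTS, of the opposite direction, 1.63 ± 0.22.

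Among neuronal genes that rose in whole brain the difference was 1.33 ± 0.14 for CACNA2D1, 1.08 ± 0.13 for SCN3A, 1.18 ± 0.12 for ERC2 and 1.16 ± 0.14 for ELAVL4. Other neuronal genes differed the other way, such as SV2A at −0.91 ± 0.24 and NLGN3 at −0.82 ± 0.19. The difference was 2.30 ± 0.24 for ND6 and −1.25 ± 0.16 for OLIG2. For the chaperones HSPA2, HSPB9 and DNAJB1 it was −1.10 ± 0.15, −1.36 ± 0.22 and −0.66 ± 0.14, with hypothalamus values of 1.25, 1.25 and 0.42. For HSP90AA1, HSPH1 and HSP90AB1 the difference was not called (edgeR adjusted p = 0.456, 0.427 and 0.074).

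The W-linked share of ETM whole brain library 1 was 0.147% of counts, while the other 5 whole brain libraries lay between 0.0114% and 0.0174%. Leaving out the Z- and W-linked genes gave 6791 calls against 6787, and leaving out that library gave 6052.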

How the results depend on the processing

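The whole brain count of 6787 stayed within 1.5 times under every alternative run except the edgeR test against a fold of 1.2 (glmTreat), which called 4084. Leaving out 1 library gave 5473 to 6610. The number of genes higher was 3428 and lower 3385 with library totals alone. As a replicate block, the shared number gave 6190 calls in whole brain, 2053 in the test of the tissue difference (3917 without it) and 2 in hypothalamus (7 without it). In hypothalamus DESeq2 called 195, and leaving out 1 library gave 0 to 39. Of 247 named genes, 224 were called and 194 of these under every alternative run. The sign turned for DNAJB1 (−0.28, but 0.19 and 0.29 with offsets for chromosome alone or with span; edgeR adjusted p = 0.0981 and 0.0208) and for TAP1 on chromosome 16 (−1.07, but 0.0063 with offsets for chromosome and span; edgeR adjusted p = 0.986). With these offsets the median of chromosome 16 was 0.507, so TAP1 still lay below the median of its chromosome. In 1 fit of all 12 libraries OTP, DLX2, PDYN and OXT were not called. The cause of these changes was not tested. With 3 libraries a group, small changes of genes near the threshold depend on single libraries.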

Other observations

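Interferon-induced genes, which defend cells against viruses, were called about as often in either direction as all genes, of which 21.1% rose and 23.2% fell. Of 22 tested, 6 rose and 4 fell, with a median of −0.04, and with offsets 5 rose and 0 fell, with a median of 0.24. ZC3HAV1, an antiviral zinc finger protein, measured 4.7, 3.17 and 3.38 CPM in CT and 8.31, 9.94 and 10.3 CPM in ETM. EIF2AK2, the kinase PKR, rose by 0.91 ± 0.15, DDX60 by 1.10 ± 0.26 and USP18 by 0.86 ± 0.22. TAP1, a peptide transporter of the major histocompatibility locus on chromosome 16, fell by 1.07 ± 0.23, and 1 gene of the list fell when chromosome 16 was left out. The offsets moved the median of chromosome 16 from −0.602 to 0.507, past 0. The absence of falls with offsets can therefore not be read as a result about its genes. The 4 that fell were 2 without CT library 2 or ETM library 1 and 1 without ETM library 2. These genes were chosen after their values were seen.

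Genes of the pallium were called in both directions, as were all genes, of which 21.1% rose and 23.2% fell. Of 27 pallial genes, 8 rose and 5 fell (2 fell in 1 fit of all 12 libraries), with NEUROD6, of excitatory neurons, at 0.75 ± 0.08. Of 19 thalamic genes, 4 rose, 2 fell and 13 were not called (2 rose without CT library 3, and 3 fell without ETM library 1), with a median of −0.06. Their summed level was 866 to 910 CPM in CT and 1170 to 1322 CPM in ETM, without overlap, and SLC17A6 held 388 and 726 CPM of it on average. OLIG3, of thalamic and hindbrain progenitors, measured 0.653, 1.22 and 1.06 CPM in CT and 0.0598, 0.191 and 0 CPM in ETM, and fell. The proportions of brain regions in each library were not measured.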
